A study of Mus musculus with 19 samples.

Results

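The 31 genes described here are the enzymes and transporters of glycolysis together with genes of the hypoxia response, examined in sorted mouse microglia during cuprizone (CPZ) demyelination. They were taken by symbol from the gene column of the listed H3K27ac peaks and of the RNA tables. All 31 are among the 24733 gene symbols of the basal RNA table, and 58 of the 14035 peaks listed over 5 comparisons carry the name of 1 of them. Those 58 listings fall on 34 distinct regions and on 18 of the 31 genes. The H3K27ac values come from 8 libraries in 4 groups of 2 libraries: KO CPZ CD11c-low (PRMT1fl/fl; cx3r1cre-ert2), WT CPZ CD11c-high, WT CPZ CD11c-low and WT basal (WT being PRMT1Ifl/fl as the labels spell it, with the floxed gene and no Cre named). The CPZ groups had received 0.2% cuprizone, a copper chelator that kills oligodendrocytes, for 5 weeks, and the basal group a normal diet and an age label of 11 weeks, so diet and whatever else separates those labels cannot be told apart. All mice were on C57BL/6. PRMT1, an arginine methyltransferase, is lost in KO mice through a tamoxifen-activated Cre expressed from the Cx3cr1 locus, which is also active in other Cx3cr1-expressing myeloid cells. Microglia were gated on CD45 and CD11b, and CPZ microglia were split by surface CD11c. KO basal H3K27ac samples were not analysed here.

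Glycolysis splits glucose to pyruvate, and when pyruvate is reduced to lactate and exported the pathway can run without oxygen. Hypoxia-inducible factor (HIF), whose oxygen-labile subunit is encoded by Hif1a, binds short hypoxia response elements with the core ACGTG or GCGTG near many glycolytic genes, and the prolyl hydroxylases Egln1 and Egln3 mark that subunit for destruction when oxygen is present. Microglia are known to shift toward glycolysis when they are activated. H3K27ac marks active promoters and enhancers. The 250 bases before an annotated start are shown for 4 members whose start lay inside a listed peak that was higher with cuprizone, because the core occurs in each of them (RefSeq, GRCm38.p6, 5′ to 3′ on the strand of the gene, capitals marking ACGTG or GCGTG on either strand). The windows are chr12:54203875-54204124 (minus strand) for Egln3, chrX:106186850-106187099 (plus) for Pgk1, chr11:120948817-120949066 (plus) for Slc16a3 and chr7:126799255-126799504 (minus) for Aldoa. Slc2a1 also had its start inside a peak that was higher in CD11c-high microglia. Its window holds 2 cores and is not shown because an annotated untranslated region covers 34 of its bases. Another Aldoa window inside the same peak (chr7:126800448-126800697) holds no core.
Egln3: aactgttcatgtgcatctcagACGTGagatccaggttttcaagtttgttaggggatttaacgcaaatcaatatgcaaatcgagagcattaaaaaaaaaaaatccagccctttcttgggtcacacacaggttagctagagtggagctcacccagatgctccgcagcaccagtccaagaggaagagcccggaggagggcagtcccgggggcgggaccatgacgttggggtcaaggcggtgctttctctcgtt
Pgk1: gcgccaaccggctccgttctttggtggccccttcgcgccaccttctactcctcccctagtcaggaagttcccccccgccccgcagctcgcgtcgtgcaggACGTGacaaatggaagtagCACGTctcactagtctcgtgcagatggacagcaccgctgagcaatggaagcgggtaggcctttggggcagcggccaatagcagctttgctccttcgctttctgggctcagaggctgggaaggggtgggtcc
Slc16a3: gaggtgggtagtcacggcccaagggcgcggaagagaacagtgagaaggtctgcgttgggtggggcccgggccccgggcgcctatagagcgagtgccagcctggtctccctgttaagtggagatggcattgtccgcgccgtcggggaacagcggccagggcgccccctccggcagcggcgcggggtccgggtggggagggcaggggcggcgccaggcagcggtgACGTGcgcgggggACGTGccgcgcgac
Aldoa: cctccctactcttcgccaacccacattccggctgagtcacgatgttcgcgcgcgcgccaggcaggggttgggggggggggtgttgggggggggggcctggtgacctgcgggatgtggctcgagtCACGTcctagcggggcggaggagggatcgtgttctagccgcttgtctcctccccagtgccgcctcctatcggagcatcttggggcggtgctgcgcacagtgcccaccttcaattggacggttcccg
A core stood in 33 of the 40 promoter windows of 29 members in the RefSeq table (82.5%), and in 38.6% of all 32851 windows of that length. Some genes have several windows, and windows of Aldoa and of Eno1 overlap and share cores, so the 40 windows are not independent. The windows at large were not matched to those of the members for base composition. The form ACGTG alone stood in 20 of the 40 windows and in 16.6% of all windows. A match describes the letters only, and binding was not measured.

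A peak is listed only where it passed the submitters' thresholds (false discovery rate under 0.05 and a log2 change beyond 1), so every listed peak had already been selected on these same libraries. Values are normalized tag counts, scaled to library size within a comparison. Basal libraries were the shallowest: relative to the mean of the 4 libraries of a comparison they held 60.9 to 94.8% of the reads, against 112.5 to 130% in the CPZ libraries set against them. Itgax, which encodes CD11c, had listed peaks that were higher in both CPZ gates than in basal microglia and lower in KO CD11c-low than in WT CD11c-high microglia, and none between the WT gates. No listed peak was named for Prmt1, so the deletion could not be checked in the chromatin. The library replicates are biological according to the protocol. With 2 libraries a group an exact permutation test cannot give a p under 0.33. The adjusted p-values below come from limma over all listed peaks of a comparison, and they describe the replicate spread of peaks already selected.

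In CPZ CD11c-low against basal WT microglia, 13 of the 31 members had at least 1 listed peak that was higher (24 peaks), which is 41.9% of the members against 10.5% of all gene symbols. Among genes with an RNA level of at least 10 the shares were 43.3% for the 30 members at that level and 17.2% for all. A lower peak was listed at 1 member (Hk1), against 1.8% of all symbols. In CPZ CD11c-high against basal microglia, 14 members had a higher listed peak (25 peaks), or 45.2% against 12.7% of all symbols and 46.7% against 20.1% among genes at that RNA level. Hk1, Hk3 and Pkm had a lower one, against 5.13% of all symbols. The 14 members with gains span glucose uptake (Slc2a1), the early steps and their regulator (Hk2, Gpi1, Pfkl, Pfkfb3, Aldoa), the later steps Pgk1 and Ldha, lactate export (Slc16a3), the pyruvate dehydrogenase kinase Pdk1, and Hif1a, Egln3, Vegfa and P4ha1 of the hypoxia response. Both comparisons use the same 2 basal libraries. All 25 member peaks of the first comparison and all 29 of the second had an adjusted p under 0.05 with limma, as did 100% of the listed peaks in either comparison. The median log2 difference of the higher member peaks was 1.76 in CD11c-low microglia and 1.91 in CD11c-high microglia, against 1.66 and 1.92 over all higher listed peaks.

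**Figure D1:**
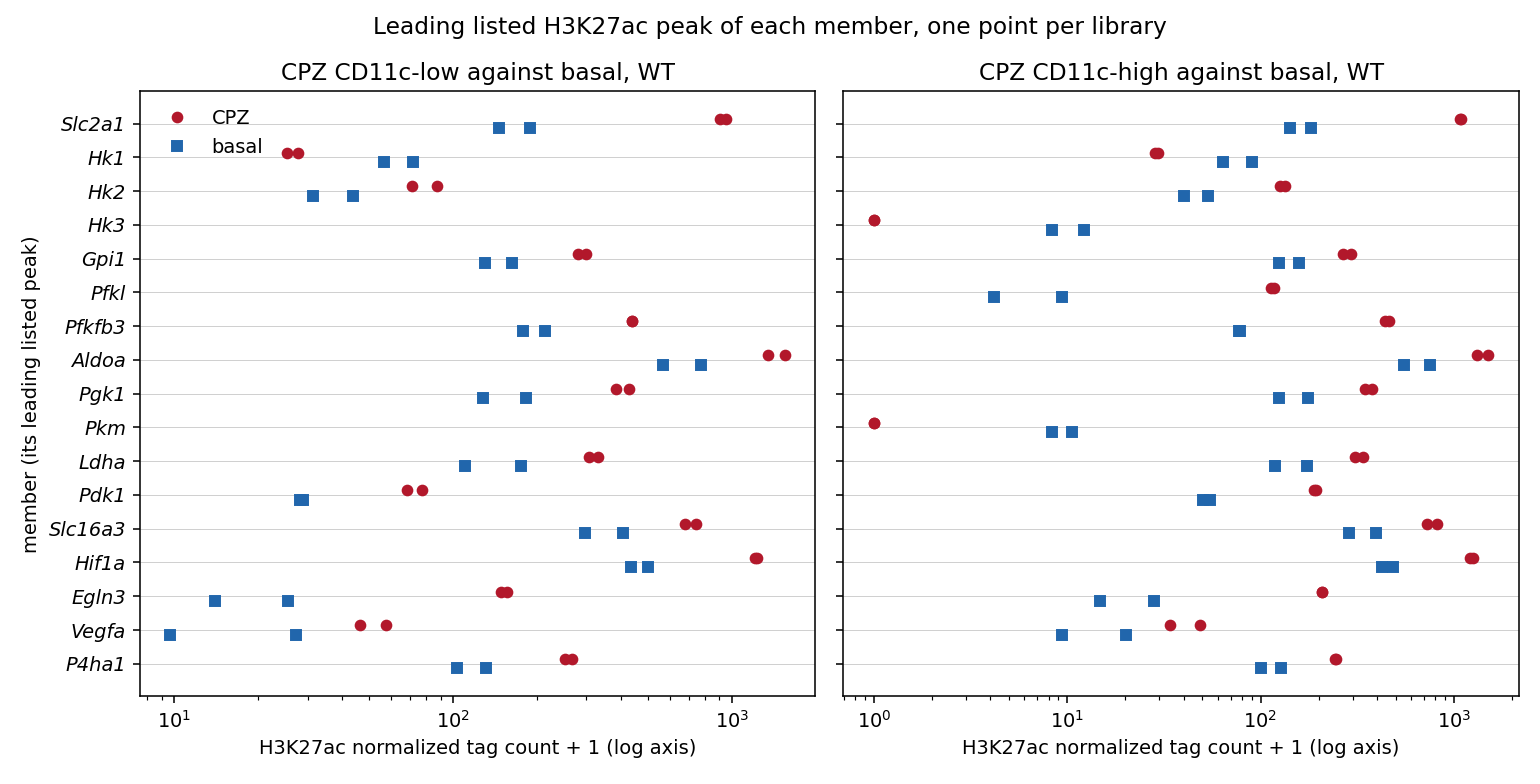
Normalized H3K27ac tag count plus 1 (log axis) at the leading listed peak of each member, the one with the highest mean in the higher group, for CPZ CD11c-low against basal (left) and CPZ CD11c-high against basal (right) WT microglia. Each circle is a CPZ library and each square a basal library, and circles and squares do not overlap at any of the peaks shown, as at every listed peak of both comparisons.

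Slc2a1, which encodes the glucose transporter GLUT1, carried the most abundant gain among the transporters, in its second intron at chr4:119123429-119128518 (GRCm38), 17228 bases downstream of the start. It held 950.05 and 905 tags in CD11c-low microglia, against 187 and 145 tags in basal microglia. The overlapping peak held 1091 and 1077 tags in CD11c-high microglia, against 182 and 140 basal tags as scaled there. Every CPZ library thus stood well above both basal libraries, with log2 differences of 2.48 (SE 0.26, limma adjusted p = 0.000186) and 2.75 (SE 0.26, adjusted p = 0.0003). A peak in the first intron had a larger log2 difference in both gates (2.93 and 3.40). It held 263 and 229 tags in CD11c-low microglia, against 39.4 and 24.9 basal tags. In CD11c-high microglia it held 377 and 364 tags, against 38.3 and 30.6 basal tags. Round the start the difference was smaller and was listed only for the CD11c-high gate: 395 and 402 tags, against 220 and 179 basal tags. A faint peak beyond the gene, listed for the CD11c-low gate only, held 24.3 and 15.1 tags, against 4.93 and 0 basal tags. The second-intron peak holds 5 hypoxia cores, 3 matches to the AP-1 motif (TGAGTCA or its reverse complement TGACTCA) and 3 to GAGGAAGT, a form of the PU.1 motif, in 5090 bases. The 101 bases round its most central AP-1 match (chr4:119126101-119126201, plus strand, capitals marking the motif) are shown as an example of a match. Binding there was not measured, and no match was tied to the gain.
Slc2a1 intron: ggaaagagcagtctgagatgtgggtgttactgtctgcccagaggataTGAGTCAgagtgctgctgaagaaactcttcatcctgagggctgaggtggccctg
Slc2a3, the higher-affinity GLUT3, had no listed peak.

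The hexokinases, which trap glucose as glucose 6-phosphate, were split between gains and losses. Hk2 had a listed gain in its seventh intron (chr6:82740186-82741702), with 133 and 125 tags in CD11c-high microglia, against 52.7 and 39.0 basal tags. In CD11c-low microglia the overlapping peak held 69.8 and 86.2 tags, against 42.7 and 30.4 basal tags, a smaller difference (log2 1.09, SE 0.28, adjusted p = 0.00624). That peak spanned 891 bases, against 1517 bases in the CD11c-high listing. Hk1 was lower in CPZ microglia. The intronic Hk1 peak at chr10:62305564-62307311 held 7.11 and 10.8 tags in CD11c-high microglia, against 68.7 and 53.8 basal tags. In CD11c-low microglia it held 26.7 and 24.3 tags, against 70.6 and 55.3 basal tags. A second Hk1 intron peak, listed only for the CD11c-high gate, held 27.6 and 28.4 tags against 89.5 and 63.3 basal tags. The peak named for Hk3 was at 0 in both CD11c-high libraries, against 11.2 and 7.38 tags in basal libraries (7 reads in each). Read against a floor of 3 reads per library it was at least 3.48-fold lower, and it lies in an intron of Uimc1, 13096 bases upstream of Hk3.

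Phosphofructokinase is the committed step of glycolysis, and Pfkl and Pfkp encode forms of it. A peak 5899 bases upstream of Pfkl (chr10:78015061-78016351) had the largest gain among the leading peaks: 112 and 116 tags in CD11c-high microglia, against 3.20 and 8.44 tags in basal microglia (log2 4.19, SE 0.41, adjusted p = 0.00034). The basal values rest on 2 and 8 reads, and the CD11c-low comparison listed no Pfkl peak. Pfkfb3, which makes the fructose 2,6-bisphosphate that activates phosphofructokinase, had 4 gained peaks in each gate. Its leading peak in CD11c-low microglia, 5919 bases into the gene, held 436 and 437 tags, against 212 and 177 basal tags. Its leading peak in CD11c-high microglia is the one named 10974 bases upstream of a start, which held 438 and 463 tags, against 76.7 and 77.0 basal tags. The overlapping CD11c-low peak held 364 and 336 tags in CD11c-low microglia, against 78.8 and 79.1 basal tags. The peak with the largest log2 difference in both gates, at chr2:11522757-11524933, held 282 and 318 tags in CD11c-high microglia, against 38.3 and 34.8 basal tags. The overlapping peak held 221 and 234 tags in CD11c-low microglia, against 37.8 and 32.5 basal tags. All 4 lie inside the Pfkfb3 gene body. Gpi1, which converts glucose 6-phosphate to fructose 6-phosphate, had a modest gain 3658 bases upstream, with 298 and 279 tags in CD11c-low microglia against 161 and 129 basal tags. Aldoa, which cleaves fructose 1,6-bisphosphate, had the most abundant promoter peak of any member. It held 1542 and 1344 tags in CD11c-low microglia, against 772 and 566 basal tags. In CD11c-high microglia it held 1506 and 1320 tags, against 756 and 554 basal tags. The interval also overlaps Fam57b in the annotation, so the signal cannot be assigned to 1 of the 2 genes.

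**Figure D2:**
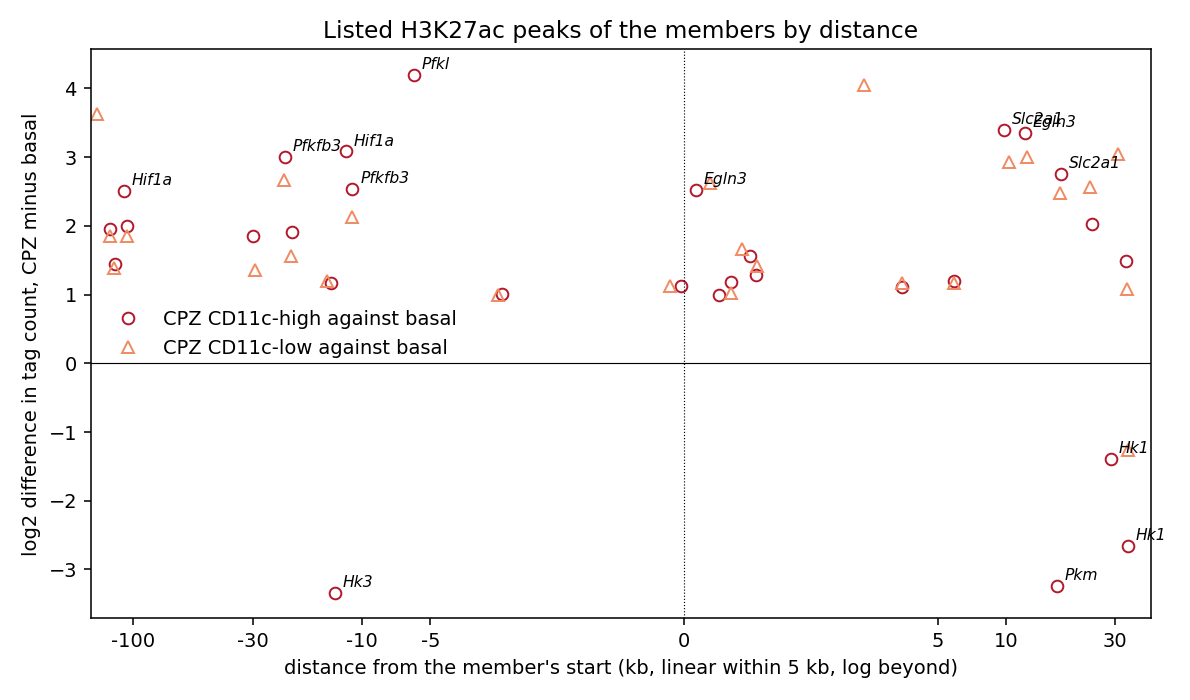
Log2 difference in H3K27ac tag count (CPZ minus basal, WT) of every listed member peak against its distance in kilobases from the start of the member it is named for, with circles for the CD11c-high gate and triangles for the CD11c-low gate. Of the peaks within 2 kb of a start only those of Egln3 exceed 2 on the log2 scale; the names mark CD11c-high peaks beyond 2.4 or below 0.

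Of the later enzymes, Pgk1, which makes the first ATP of the pathway, gained signal over a peak that spans its promoter and first intron (chrX:106186291-106190775). It held 425 and 384 tags in CD11c-low microglia, against 181 and 127 basal tags, and 345 and 376 tags in CD11c-high microglia, against 176 and 123 basal tags. Ldha, which reduces pyruvate to lactate, had its listed gain 14118 bases upstream of the start rather than at it. There CD11c-low microglia held 307 and 329 tags, against 174 and 110 basal tags, and CD11c-high microglia held 306 and 338 tags, against 173 and 118 basal tags. Slc16a3, the lactate exporter MCT4, gained signal round its start (chr11:120947797-120952178): 739 and 677 tags in CD11c-low microglia, against 406 and 295 basal tags. The CD11c-high values were 813 and 721 tags, against 395 and 287 basal tags. Slc16a1, which encodes the other monocarboxylate transporter of the set, MCT1, had none. The peak named for Pdk1, a kinase that keeps pyruvate out of the mitochondrial dehydrogenase, lies 29803 bases upstream in an intron of Itga6. It held 192 and 188 tags in CD11c-high microglia, against 49.5 and 53.8 basal tags. In CD11c-low microglia the overlapping peak held 67.5 and 76.2 tags, against 27.9 and 27.1 basal tags. That peak spanned 755 bases, against 2243 bases in the CD11c-high listing. Pkm, the pyruvate kinase gene, had 1 faint intronic peak that was at 0 in both CD11c-high libraries, against 9.59 and 7.38 basal tags (6 and 7 reads), at least 3.18-fold lower at the same floor. Tpi1, Gapdh, Eno1, Pfkp, Pfkfb4 and Aldoc had no listed peak in any comparison.

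Egln3 had the largest log2 differences among listed member peaks within 2 kb of a start (2.63 and 2.52). The peak over its first exon held 160 and 131 tags in CD11c-low microglia, against 19.7 and 26.02 basal tags. In CD11c-high microglia it held 136 and 127 tags, against 19.2 and 25.3 basal tags. A first-intron peak 12015 bases into the gene (chr12:54190975-54192743) held 208 and 207 tags in CD11c-high microglia, against 27.2 and 13.7 basal tags (log2 3.36, SE 0.36, adjusted p = 0.000425). In CD11c-low microglia it held 155 and 147 tags, against 24.6 and 13.01 basal tags. The 1620 bases of this peak in the CD11c-low listing hold 4 hypoxia cores. The 101 bases round the most central of them (chr12:54191272-54191372, plus strand, capitals marking ACGTG or GCGTG on either strand) are shown because 2 cores stand close together there.
Egln3 intron: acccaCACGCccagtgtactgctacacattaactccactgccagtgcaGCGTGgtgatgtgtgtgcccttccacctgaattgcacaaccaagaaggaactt
Hif1a was named for 6 gained peaks in each gate. The leading one (chr12:73778014-73782757), 120939 bases upstream, held 1227 and 1204 tags in CD11c-low microglia, against 496 and 434 basal tags. In CD11c-high microglia the overlapping peak held 1209 and 1256 tags, against 482 and 422 basal tags. The other CD11c-high peaks lay between 11705 and 126618 bases upstream, 1 of them in a Prkch intron, with log2 differences up to 3.08. Hif1a is the gene named in the lists for these regions, which says nothing of the gene they act on, and the CD11c-low gate alone had a listed peak inside the gene, with 32.2 and 25.1 tags against 0 and 2.17 basal tags. Vegfa, the angiogenic growth factor gene, had a small peak 1154 bases into the gene that held 56.5 and 45.2 tags in CD11c-low microglia, against 26.3 and 8.67 basal tags. Its CD11c-high values were 32.9 and 47.7 tags, against 19.2 and 8.44 basal tags, so the gap between the groups was narrow. P4ha1, a collagen prolyl hydroxylase subunit, held 266 and 251 tags in CD11c-low microglia at an intronic peak, against 130 and 102 basal tags, and 243 and 245 tags in CD11c-high microglia, against 126 and 99.1 basal tags. Egln1, Bnip3, Ndrg1, Adm and Ankrd37 had no listed peak.

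The direction of the smaller gains rests on scaling to library size, which the lists alone cannot check. TMM factors were also computed over the listed peaks themselves, most of which were higher in CPZ microglia. They centre those peaks by construction, so gains below the typical one turn, and the turns cannot decide the direction. With these factors, 10 of the 14 leading peaks of the CD11c-low comparison and 7 of the 17 of the CD11c-high comparison turned. Among them were Aldoa, Pgk1, Slc16a3, Ldha, Gpi1, P4ha1 and Hif1a in both. Of the calls on member peaks 96% were higher in CD11c-low microglia with limma and 58.8% with TMM, while over all listed peaks the shares were 88.7% and 50.8%. In CD11c-high microglia the shares were 86.2% and 52.2% for the member peaks and 74.1% and 49.3% for all listed peaks. Slc2a1, Egln3 and Vegfa kept their direction in both gates, with Vegfa no longer called, and Pfkl kept it in CD11c-high microglia.

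The CD11c-high and CD11c-low gates were compared directly in WT CPZ mice. None of the 31 members had a listed peak in either direction, against 0.825% of all gene symbols with a higher peak and 0.695% with a lower one. At those shares less than 1 member would be listed, so the count of 0 says little, and peaks that missed the listing thresholds were not analysed here. Of the 28 member regions that were higher than basal in either gate, 21 were listed in both, 3 in CD11c-low microglia alone and 4 in CD11c-high microglia alone. In 15 of those 21 regions the log2 difference from basal was larger in the CD11c-high gate, by up to 0.51 at the Pdk1 region. The listed intervals of a region could differ in width between the gates. At Pdk1 they spanned 755 bases in the CD11c-low and 2243 bases in the CD11c-high listing, so the 2 differences were not taken over the same bases. The difference between gates was not tested for these regions. Of all higher peaks of the CD11c-low comparison, 82.1% overlapped a higher peak of the CD11c-high comparison, and of the member peaks 87.5% did.

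**Figure D3:**
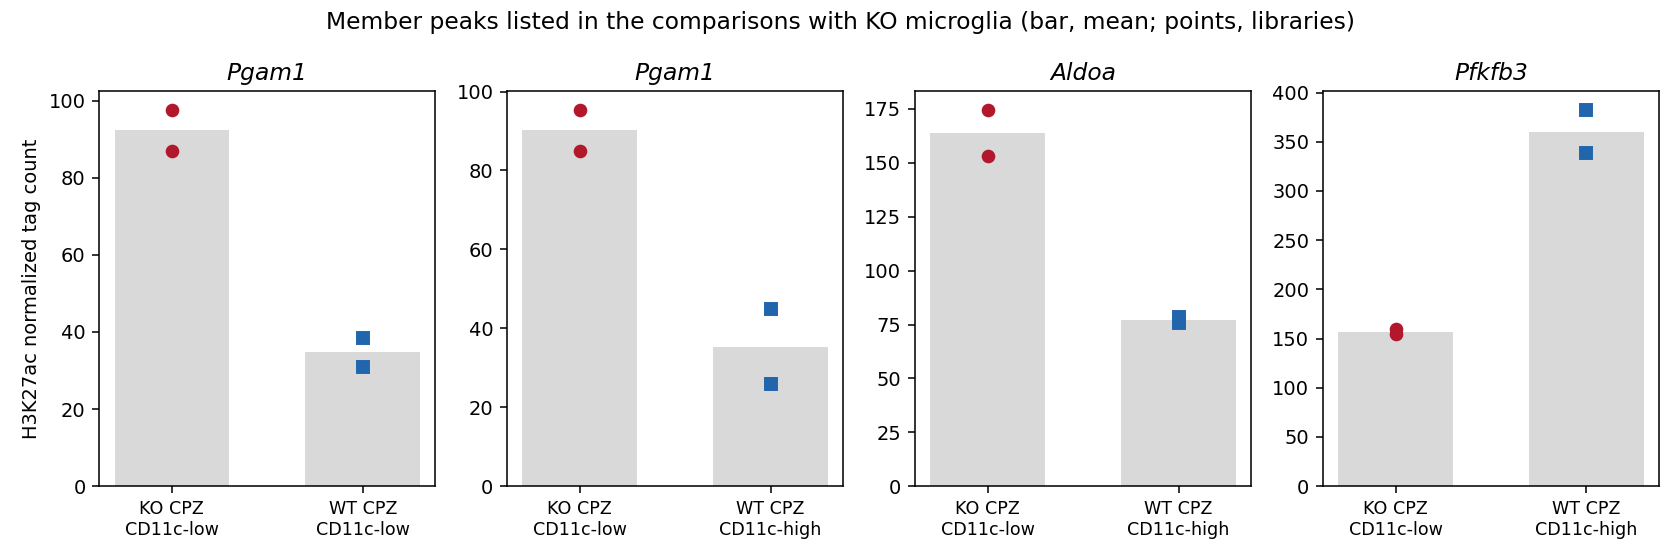
Normalized H3K27ac tag count at the 4 member listings in comparisons with KO CPZ CD11c-low microglia, set against WT CPZ CD11c-low (first panel) or WT CPZ CD11c-high microglia (the other panels). Grey bars are means of 2 libraries and points are the libraries; KO libraries lie above WT at Pgam1 and Aldoa and below WT at Pfkfb3.

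Few regions at these genes were listed between genotypes. In KO against WT CPZ CD11c-low microglia, Pgam1, which encodes a phosphoglycerate mutase, was the 1 member with a higher peak, against 0.736% of all symbols. No member had a lower one, against 0.178%. The Pgam1 peak lies over exon 3 (chr19:41915728-41917749, 4867 bases from the start) and held 87.04 and 97.5 tags in KO microglia, against 38.4 and 31.01 tags in WT CD11c-low microglia. The KO libraries did not overlap the WT libraries, as at every listed peak of that comparison (log2 1.39, SE 0.25, limma adjusted p = 0.0043), and limma called 100% of the listed peaks there. The call was lost when libraries were scaled over the listed peaks themselves, with adjusted p = 0.781 for edgeR with TMM and 0.845 for DESeq2. Against WT CD11c-high microglia the same region held 85.0 and 95.3 tags in KO microglia and 44.8 and 25.8 tags in WT microglia. The listed peak holds 1 hypoxia core, shown with its surroundings (chr19:41916496-41916596, plus strand) because it is the member region listed in both KO comparisons. Both comparisons use the same KO libraries, so the second listing is not independent of the first.
Pgam1 peak: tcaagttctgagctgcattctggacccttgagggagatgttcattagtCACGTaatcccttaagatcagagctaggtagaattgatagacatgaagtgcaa

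When KO CD11c-low cells were set against the WT CD11c-high gate, both after CPZ, Aldoa and Pgam1 had higher peaks (6.45% of members against 1.66% of all symbols) and Pfkfb3 a lower one (3.23% against 1.34%). The Aldoa peak, 8081 bases upstream of the start used for the listing, held 174 and 153 tags in KO microglia, against 75.7 and 78.4 tags in WT CD11c-high microglia (log2 1.08, SE 0.17). It is a different region from the promoter peak that rose with cuprizone. The Pfkfb3 peak is the cuprizone gain of that gene with the largest log2 difference, and it held 159 and 154 tags in KO CD11c-low microglia, against 338 and 382 tags in WT CD11c-high microglia (log2 -1.19, SE 0.17, adjusted p = 0.00294). Limma called all 3, as it did 99.3% of the peaks of that list. EdgeR with TMM also called all 3, and 99.8% of the list. DESeq2 with its own size factors called Pfkfb3 alone, and 55.7% of the list. This comparison changes the genotype and the CD11c gate together, and the 2 cannot be told apart in it. None of the 24 member peaks gained in WT CD11c-low microglia overlapped a peak of the KO against WT CD11c-low lists, where 1.11% of all such gained peaks overlapped a higher one and 0.42% a lower one; both comparisons use the WT CD11c-low libraries.

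RNA could be followed only through the mean normalized read count that each of the 6 deposited RNA tables gives over its libraries, because those libraries are not samples of the series. Levels below are that mean per kilobase of transcript, scaled to a sum of 1000000 over the gene symbols of a table. The WT CPZ table pools CD11c-low and CD11c-high microglia, and the basal table pools WT and KO. The tables were normalized separately, and differences between them have no replicate error and no test. Counts past 2-fold use log2(level + 1), while the folds below are plain ratios of levels. On the first scale 9 of 31 members were at least 2-fold higher in the WT CPZ table than in the basal table, against 6.4% of all gene symbols and 7.82% of those with a level of at least 10. None was 2-fold lower, against 4.62% of all symbols. The median log2 difference was 0.86 for the members and 0.00 for all 24600 symbols. A median-ratio scaling over 9710 genes shifted the log2 values up by 0.15 and brought 16 members past 2-fold. Under that scaling 7.44% of all symbols were 2-fold higher and 3.53% lower.

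**Figure D4:**
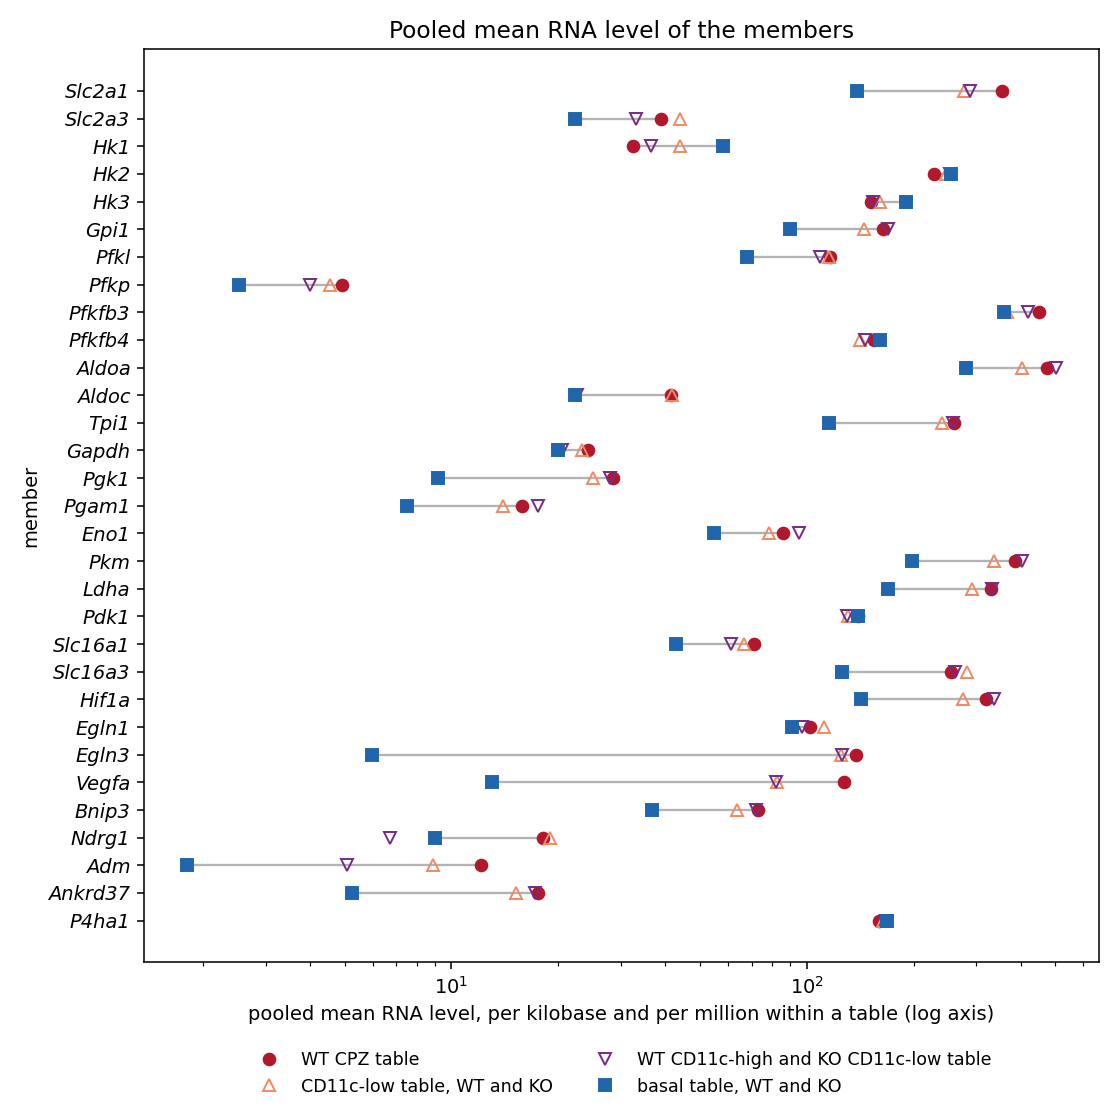
Pooled mean RNA level of the 31 members (per kilobase, scaled to a sum of 1000000 within a table, log axis) in the WT CPZ table (circles), the CD11c-low table of WT and KO (upward triangles), the table of WT CD11c-high and KO CD11c-low (downward triangles) and the basal table of WT and KO (squares); grey lines join the WT CPZ and basal levels. Egln3 and Vegfa have the longest lines, and Hk1 runs the other way.

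The largest RNA difference was at Egln3, with a level of 138 in the WT CPZ table, against 5.97 in the basal table, 23.1-fold. Vegfa had a level of 127 against 13.02 in the basal table (9.76-fold), and Adm, which encodes the vasodilator peptide adrenomedullin, 12.1 against 1.81 (6.70-fold). Ankrd37, a HIF target of little-known function, had a level of 17.6 against 5.24 (3.35-fold). Hif1a itself had 320 against 142 in the basal table (2.26-fold), while Egln1 had 102 against 90.9. The hypoxia genes thus ranged widely, and P4ha1 stood at 160 in the WT CPZ table against 168 in the basal table. Bnip3, a mitophagy receptor, had 72.9 against 36.7.

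Among transporters, Slc2a1 had an RNA level of 355 in the WT CPZ table, against 138 in the basal table (2.57-fold), and Slc16a3 had 255 against 125 (2.03-fold). Slc2a3 had 38.9 against 22.3 and Slc16a1 70.8 against 42.9. Most enzymes of the chain were higher on this scale: Aldoa 476 in the WT CPZ table against 281 in the basal table, Pkm 387 against 198, Ldha 331 against 169, Tpi1 259 against 116, Gpi1 164 against 89.8, Pfkl 116 against 67.8 and Eno1 85.6 against 54.7. Pgk1 had 28.4 against 9.19 (3.10-fold) and Pgam1 15.8 against 7.49 (2.11-fold as a plain ratio, under 2-fold once 1 was added), although Pgk1, Pgam1, Gapdh, Eno1 and Ldha have near-identical processed copies in the mouse genome that can draw or lose reads. Gapdh stood at 24.3 against 20.0, far under Aldoa and Tpi1 but above Pgam1 in both tables. Its level is uncertain because of such copies. The entry and regulatory steps differed from these. Hk1 had 32.5 in the WT CPZ table against 58.0 in the basal table, Hk3 152 against 190 and Hk2 228 against 254, and Hk2 had a log2 difference of -0.0038 with median-ratio scaling. Pfkfb3 was the most abundant member in the basal table and had 450 in the WT CPZ table against 359, while Pfkfb4 had 155 against 161 and Pdk1 140 against 139. Pfkfb4 and P4ha1 changed sign with median-ratio scaling. Pfkp (4.93 against 2.52), Aldoc (41.5 against 22.3) and Ndrg1 (18.1 against 8.99) were higher at low levels.

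The other CPZ tables, which may share libraries with the WT CPZ table, gave similar levels for most members. Egln3 had 125 in the table of CD11c-low WT and KO microglia and 126 in the table of WT CD11c-high and KO CD11c-low microglia, and Vegfa had 82.7 and 82.1. The corresponding levels of Slc2a1 were 278 and 288. Ndrg1, Aldoc and Adm differed between those tables, with 6.71, 22.5 and 5.09 in the table of WT CD11c-high and KO CD11c-low microglia against 19.0, 41.8 and 8.89 in the CD11c-low table. Of 5 endothelial markers, Cldn5, Ly6c1 and Slco1a4 varied between tables in the same way. Cldn5 had 59.6 in the WT CPZ table, 60.8 in the CD11c-low table and 12.4 in the table of WT CD11c-high and KO CD11c-low microglia, against 18.7 in the basal table. The summed level of the 5 was 169, 177 and 63.9 in those CPZ tables, against 128 in the basal table, where Pecam1 made up 80.3 of it. The neutrophil genes S100a8 and S100a9 summed to 329, 315 and 24.6 in those CPZ tables, against 286 in the basal table. The part of such cells in the levels of Ndrg1, Aldoc and Adm was not tested. In the table of WT CD11c-high and KO CD11c-low microglia Ly6c1 had 18.2, against 11.7 in the basal table, and Slco1a4 had 8.07 against 7.17. Cldn5, Cdh5 and Pecam1 were lower there than in the basal table: 12.4 against 18.7, 8.24 against 9.64 and 17.0 against 80.3. Egln3 was 21.1-fold and Vegfa 6.31-fold above the basal table in the table of WT CD11c-high and KO CD11c-low microglia. The part of such cells in the Egln3 and Vegfa levels was not tested either. Fewer cells of a type and less RNA per cell cannot be told apart in bulk samples. The 7 microglial markers found in the tables summed to 4049 in the WT CPZ table, against 4459 in the basal table, and the 4 lymphocyte markers were each under 1 in both.

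Peaks and RNA met at part of the members. Of the 14 members with a higher listed peak in either gate, 6 were also 2-fold higher in RNA (Slc2a1, Pgk1, Slc16a3, Hif1a, Egln3 and Vegfa). Of all gene symbols 6.4% were 2-fold higher in RNA. The share among all symbols with a higher listed peak was not worked out, so the count describes the members only. Tpi1, Adm and Ankrd37 were 2-fold higher without any listed peak, and Hk2, Pdk1 and P4ha1 had gained peaks with RNA levels close to basal. The median log2 RNA difference was 0.91 for members with a higher peak and 0.77 for the other members.

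Other genes of the same pathways were taken from a wider list. Of 36 further genes of glycolysis and its side paths, 5 had a higher peak in either gate, where 12.7% of all symbols had one in CD11c-high and 10.5% in CD11c-low microglia, and Slc2a5 had a lower one in CD11c-high microglia. Slc2a6, which encodes the transporter GLUT6, held 660 and 604 tags at its first intron in CD11c-high microglia, against 121 and 103 basal tags, and its RNA level was 197 in the WT CPZ table against 10.3 in the basal table. Slc2a5, the fructose transporter that marks resting microglia, moved the other way, with 405 and 426 promoter tags in CD11c-high microglia, against 1032 and 794 basal tags. It was also lower in CD11c-high than in CD11c-low WT microglia, with 163 and 172 tags against 366 and 339 tags. Its RNA level was 107 in the WT CPZ table against 296 in the basal table. Of 35 such genes in both RNA tables, 4 were 2-fold higher and 1 was lower, against 6.4% and 4.62% of all symbols.

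Of 43 further hypoxia response genes, 10 had a higher peak in CD11c-high microglia and 9 in CD11c-low microglia, and 4 and 2 had a lower one. Of all gene symbols 12.7% and 10.5% had a higher peak in those gates, and 5.13% and 1.8% a lower one. Bhlhe40, a transcriptional repressor induced by HIF, held 1026 and 923 promoter tags in CD11c-high microglia, against 65.5 and 32.7 basal tags, and had an RNA level of 293 in the WT CPZ table against 4.34 in the basal table. Plin2, which coats lipid droplets, held 1130 and 1127 promoter tags in CD11c-high microglia, against 198 and 159 basal tags. Ddit4, an inhibitor of mTOR signalling that hypoxia also induces, was lower, with 983 and 967 tags in CD11c-high microglia over a broad upstream region, against 3230 and 2454 basal tags. In RNA 11 of 42 of these genes were 2-fold higher and 1, Ddit4, was lower (66.9 in the WT CPZ table against 146 in the basal table), where 6.4% of all symbols were 2-fold higher and 4.62% lower. In KO against WT CD11c-low microglia 3 of the 43 had a higher peak (P4ha2, Epas1 and Insig2), against 0.736% of all symbols. The higher calls of that list rest on the scaling: limma called 222 listed peaks higher, edgeR with TMM 33 and DESeq2 15. The P4ha2 peak, upstream of a second collagen prolyl hydroxylase gene, held 440 and 388 tags in KO microglia, against 160 and 188 tags in WT microglia. At Epas1 the KO libraries lay apart, with 184 and 85.8 tags against 48.7 and 38.0 in WT microglia. The leading Insig2 peak was faint, with 28.65 and 20.47 tags in KO microglia against 0 and 1.0 in WT microglia.

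The hypoxia core was only a little more common in the gained member peaks than in gained peaks at large. Within the central 1000 bases, 76.0% of the 25 higher member peaks of the CD11c-high comparison and 67.4% of all 5571 higher peaks held ACGTG or GCGTG. The mean number of such cores in those bases was 2.36 in the member peaks and 1.52 in all higher peaks. A few cores in a whole peak, as given above for single peaks, are therefore usual. For ACGTG alone the shares were 60.0% and 42.6%, for the AP-1 motif 24.0% and 24.5%, and for GAGGAAGT 20.0% and 15.8%. Several of these member peaks neighbour each other in 1 gene, so the 25 peaks are not independent of one another.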

How the data were processed

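H3K27ac ChIP-seq of sorted microglia (10 ChIP and 9 input samples) was deposited as lists of differential peaks. The authors aligned reads with Bowtie2, checked them with FastQC 0.11.9, removed duplicates with SAMtools 0.1.19, called peaks against input with HOMER and compared groups with DESeq2. The deposited signal values are tag counts normalized to library size within each comparison. Labels name hg19 and mm10; against GRCm38.p6, 99.9% of 10631 peaks lay on the chromosome of their named gene and 82.1% gave a start within 10 bases of an annotated one. The authors' fold change and p-value columns were not used. The deposited RNA tables give a mean normalized read signal per gene and a transcript length; 19 columns of single RNA libraries belong to no sample of the series and were not used. RNA rows without a symbol (0.784 to 1.01% of the mean counts) were left out.

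The 31 genes and the other gene lists were chosen with earlier results of these data known, and the background of genes with an RNA level of at least 10 was added after seeing the data. Each gene's leading peak is its highest listed peak in the higher group. Limma 3.58.1 (R 4.3.3) with empirical Bayes was run on log2(tags + 1) over all listed peaks of a comparison, with Benjamini-Hochberg adjustment. The value of 1 read was recovered for every library (100% of values whole within 0.003 reads plus 0.006 tags), and edgeR 4.0.16 and DESeq2 1.42.0 were run on those reads as alternatives. The floor of 3 reads covers counting error only. The fitting steps were tested on simulated data. Overlaps needed 1 base (bedtools 2.31.1). An item of the wider gene list is not reported here.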

Additional observations from a re-analysis of the deposited data

How the results depend on the processing

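The counts of member peaks called (25 in CD11c-low against basal, 29 in CD11c-high against basal, 0 between the WT gates, 1 in KO against WT CD11c-low and 3 between KO CD11c-low and WT CD11c-high microglia) were the same with a pseudocount of 5, with a replicate block (25, 29, 0, 1 and 3; same-numbered samples share only a number, with correlations of deviations from -0.08 to 0.14 and every count unchanged) and with edgeR on recovered reads. Leaving out 1 library gave 21 to 25, 22 to 29, 0, 1 and 3. TMM over the listed peaks gave 11 and 16 calls in the same direction for CD11c-low and CD11c-high against basal. It gave 0 for KO against WT CD11c-low and 3 for KO CD11c-low against WT CD11c-high. DESeq2 with its own size factors gave 10, 16, 0 and 1 in the same order. A log2 difference of at least 1.5 left 14, 18, 0 and 0, and peaks within 10 kb left 9 and 11 in the CPZ against basal comparisons. Among all listed peaks TMM called 2358 of 4886, 4863 of 7520, 82 of 271 and 907 of 909, and DESeq2 1857, 4315, 64 of 271, 269 of 449 and 506 of 909.

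Leading peaks that turned with TMM in CD11c-low microglia were Hk2 (-0.42), Gpi1 (-0.54), Pfkfb3 (-0.37), Aldoa (-0.41), Pgk1 (-0.12), Ldha (-0.33), Pdk1 (-0.17), Slc16a3 (-0.50), Hif1a (-0.15) and P4ha1 (-0.37), and in CD11c-high microglia Gpi1 (-0.46), Aldoa (-0.35), Pgk1 (-0.18), Ldha (-0.30), Slc16a3 (-0.29), Hif1a (-0.035) and P4ha1 (-0.36), all log2. TMM centres the listed peaks by construction. The leading Pfkfb3 peak is a different region in each gate, so its turn in CD11c-low microglia alone does not set the gates apart.

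Members with a listed peak fell to 5 (CD11c-low higher), 7 (CD11c-high higher) and 0 (CD11c-low lower, both KO comparisons) at a log2 difference of 1.5. Within 10 kb no lower member remained in CD11c-low or CD11c-high against basal or between KO CD11c-low and WT CD11c-high; a mean of 50 tags left 1 lower member in CD11c-high. In RNA, median-ratio scaling gave 16 members 2-fold higher, and the other settings 8 to 11. The shallower basal libraries limit peaks that are faint there.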
